A study of Mus musculus with 8 samples.

Results

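The ribosomal protein genes encode the protein parts of the cytoplasmic ribosome. They were taken here as every mouse gene whose symbol begins with Rpl or Rps followed by a number, with at most a short letter ending, plus Rplp0, Rplp1, Rplp2 and Rpsa. This gave 85 of 26216 genes with a curated RefSeq transcript, of which 84 encode protein. Large-subunit symbols (Rpl and Rplp) made up 52 of them and small-subunit symbols (Rps and Rpsa) 33. Of the 85, 77 are parts of the standard 80S ribosome and 8 are paralogs. In the deposited lists 49 of the 85 were named in at least 1 promoter list, 53 had a peak assigned to them, and 19 had neither.

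Each ribosome is built from a large and a small subunit, in which many proteins are bound to ribosomal RNA, and nearly every cell makes all of these proteins at once. Their promoters are a textbook case of constantly active promoters in CpG islands, stretches of DNA that hold many CpG dinucleotides and are usually kept free of methylation. 5-Hydroxymethylcytosine (5hmC) is made by TET enzymes from methylated cytosine, so it can form only where methylation was present, and it is abundant in neurons.

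The mark was measured by hMeDIP-seq, in which an antibody to 5hmC captures DNA fragments for sequencing. All cells came from ICR mice and are labelled as passage 3-5. The 6 hMeDIP libraries were 1 each of embryonic fibroblasts (MEFs) from E13.5 embryos, named the negative control; of induced neurons that MEFs gave rise to at 1, 3, 5 and 7 dpi, an abbreviation the labels leave unexplained; and of hippocampal neurons from 1-day-old pups, named the positive control. The agents that induced the neurons are not given in the sources used here. Another 2 samples were inputs, which are not analysed here. With 1 library per group there is no replicate, no test between conditions was possible, and every difference below is between libraries. Each cell pool was measured in bulk, so a mark in fewer cells cannot be told apart from less of the mark per cell.

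The authors compared each of the other 5 libraries with the MEF library around transcription start sites (TSS), and listed regions with more signal (hyper) or less signal (hypo) than in MEFs. All 5 comparisons share that MEF library, so a place where it stood high can be listed in all of them. Only listed regions have values, and nothing is known here of the level at a gene that is not listed. The deposited signal could be turned back into whole reads, since each library's values were whole numbers scaled by a constant. After scaling, 1 read counted for 1.78 MEF reads in the 1 dpi library, for 1.75 at 3, 5 and 7 dpi, and for 1.80 in the neurons from pups. Reads are given below as recovered whole reads, and folds after this scaling. Where a library had 0 reads, 3 reads were put in their place and the fold is given as a lower bound ("at least"), with the higher library's reads taken as exact.

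The CpG-rich label held for most of the genes by sequence, whereas activity was not measured in these files. RefSeq promoter sequences (GRCm38.p6, 250 bases before the start and 50 after) were matched for 64 of the 85 genes, 76 promoters in all. The median CpG ratio, observed CpGs over the number that the base composition would give, was 0.869 (quartiles 0.716 and 0.982) against 0.547 in 23306 promoters of all genes. A ratio of at least 0.6 was reached by 66 of 76, or 86.8%, against 46.4% of all. The median GC content was closer, 58.2% against 56.0%. Below 0.6 lay Rpl6 (0.421), Rpl11 (0.471), Rpl27 (0.536), Rps25 (0.542), Rpl24 (0.587), Rpl15 (0.596), Rps4x (0.598), 1 of the starts of Rpl22 (0.432) and 2 of Rpl3l. Rpl3l, the paralog of Rpl3 found in striated muscle, had the lowest ratios, 0.134 and 0.0892.

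**Figure D1:**
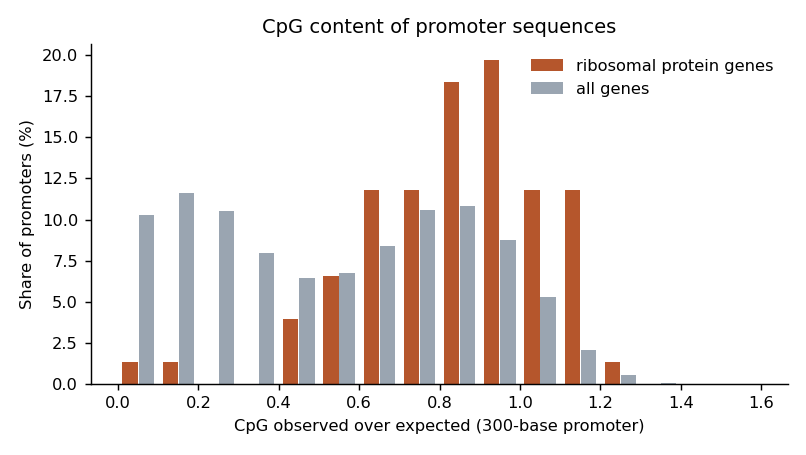
CpG observed over expected in 300-base promoters (x axis) against the share of promoters in percent (y axis), in bins of 0.1, for 76 ribosomal protein gene promoters and 23306 promoters of all genes. The ribosomal protein genes form 1 hump around their median of 0.869, while all genes spread over low and high ratios with a median of 0.547.

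The 250 bases upstream of the RefSeq start are shown for 7 genes, written 5′ to 3′ on the gene's own strand with every CpG in capitals. Rpl28 was chosen because it was the single gene whose hypo region covered the TSS, and Rpl13a and Rpl11 because their hypo regions reached into the sequence. Rpl19, Rpl22 and Rps16 were chosen because hyper regions did, and Rpl3l for its few CpGs. The positions are chr7:4792715-4792964 (plus strand), chr7:45128746-45128995 (minus strand), chr4:136053394-136053643 (minus strand), chr11:98026460-98026709 (plus strand), chr4:152324186-152324435 (plus strand), chr7:28350439-28350688 (plus strand) and chr17:24732435-24732684 (plus strand).
Rpl28: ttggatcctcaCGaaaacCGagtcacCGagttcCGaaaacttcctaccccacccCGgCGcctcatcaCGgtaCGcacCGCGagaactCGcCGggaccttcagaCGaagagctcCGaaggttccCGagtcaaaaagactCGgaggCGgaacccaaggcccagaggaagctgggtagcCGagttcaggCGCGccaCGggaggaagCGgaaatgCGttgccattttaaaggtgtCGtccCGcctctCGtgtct
Rpl13a: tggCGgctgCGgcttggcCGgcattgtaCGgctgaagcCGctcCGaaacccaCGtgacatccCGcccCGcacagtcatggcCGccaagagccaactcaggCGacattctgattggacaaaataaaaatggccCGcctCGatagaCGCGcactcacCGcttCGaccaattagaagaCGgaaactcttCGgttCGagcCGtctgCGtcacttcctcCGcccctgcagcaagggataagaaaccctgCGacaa
Rpl11: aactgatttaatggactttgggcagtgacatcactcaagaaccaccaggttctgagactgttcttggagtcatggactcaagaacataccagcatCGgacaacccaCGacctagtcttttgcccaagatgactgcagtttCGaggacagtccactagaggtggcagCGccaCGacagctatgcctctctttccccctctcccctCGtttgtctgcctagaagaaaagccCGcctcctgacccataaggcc
Rpl19: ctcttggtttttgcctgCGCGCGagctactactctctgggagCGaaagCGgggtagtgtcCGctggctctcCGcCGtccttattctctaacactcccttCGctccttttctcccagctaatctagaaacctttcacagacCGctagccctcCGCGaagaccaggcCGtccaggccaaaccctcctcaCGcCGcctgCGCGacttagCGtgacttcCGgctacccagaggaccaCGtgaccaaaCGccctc
Rpl22: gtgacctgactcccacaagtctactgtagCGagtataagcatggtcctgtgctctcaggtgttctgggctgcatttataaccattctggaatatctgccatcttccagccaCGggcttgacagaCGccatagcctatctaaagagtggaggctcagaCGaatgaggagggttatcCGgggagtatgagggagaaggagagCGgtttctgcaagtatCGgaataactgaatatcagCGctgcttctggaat
Rps16: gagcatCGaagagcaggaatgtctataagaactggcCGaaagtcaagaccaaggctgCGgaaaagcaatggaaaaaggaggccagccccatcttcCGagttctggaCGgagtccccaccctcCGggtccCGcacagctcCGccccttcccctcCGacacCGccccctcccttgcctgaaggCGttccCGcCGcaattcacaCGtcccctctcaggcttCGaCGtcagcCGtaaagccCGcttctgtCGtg
Rpl3l: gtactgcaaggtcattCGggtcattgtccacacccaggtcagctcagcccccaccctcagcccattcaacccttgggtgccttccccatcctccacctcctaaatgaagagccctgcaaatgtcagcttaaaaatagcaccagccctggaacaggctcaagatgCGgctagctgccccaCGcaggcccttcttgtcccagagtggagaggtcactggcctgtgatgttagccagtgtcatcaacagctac
The 250 bases held 26 CpGs in Rpl28, 24 in Rpl13a, 21 in Rpl19 and 19 in Rps16, but 8 in Rpl22, 7 in Rpl11 and 3 in Rpl3l. The sequences with hypo regions were thus not all CpG-rich, and neither were those with hyper regions.

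Motifs were looked for in the same 300-base windows, on both strands except the last. CTTCCG, the core of the site bound by ETS-family factors such as GABP, stood in 46 of 76 promoters (60.5%) against 20.7% of all. ATGGCG, the core of the YY1 site, stood in 24 (31.6%) against 10.5%, and GGGCGG, the GC box of SP1, in 46 (60.5%) against 45.2%. TATAAA stood in 7 (9.21%) against 12.3%, and CCAAT in 23 (30.3%) against 38.3%. A run of at least 5 pyrimidines beginning with C at the annotated start, the feature known in transcripts with a 5′ terminal oligopyrimidine tract, stood in 13 (17.1%) against 2.35%, and it depends on the exact base annotated as the start. The first 3 motifs each hold a CpG and their matches can overlap, and a match describes the sequence without showing a bound site.

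Ribosomal protein genes were listed as hypo about as often as all genes, or somewhat less often, and no test compares the shares. At 1 dpi 27 of the 85 were in the hypo list (31.8%, against 36.8% of all genes). At 3 dpi 25 were (29.4% against 34.3%), at 5 dpi 27 (31.8% against 34.1%), at 7 dpi 23 (27.1% against 34.3%) and in primary neurons 28 (32.9% against 34.8%). All 5 shares lay below the background, and with the MEF library in common they are not 5 separate observations. Among all genes with a promoter CpG ratio of at least 0.6 the hypo share was 37.0%, 34.4%, 34.5%, 34.4% and 35.0% in the same order. These shares were not below those of all genes. They were below those of protein-coding genes, at 40.4%, 37.7%, 37.5%, 37.8% and 38.3%. The 56 ribosomal protein genes with that ratio gave 19, 17, 18, 16 and 19 calls. The shares of all 85, of which 84 encode protein, lay farther below those of protein-coding genes than below those of all genes.

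Hyper calls were fewer. They reached 8 genes at 1 dpi (9.41%, against 11.7% of all genes), 8 at 3 dpi (9.41% against 10.9%), 10 at 5 dpi (11.8% against 16.9%), 4 at 7 dpi (4.71% against 7.45%) and 9 in primary neurons (10.6% against 7.43%). Only the primary neuron share stood above its background. Among genes with a promoter CpG ratio of at least 0.6 it did not, with 4 of 56 ribosomal protein genes (7.14%) against 7.72%. Some genes had a region in both lists of 1 comparison: 2 at 1 dpi (2.35%, against 5.51% of all genes), 0 at 3 dpi (against 4.64%), 4 at 5 dpi (4.71% against 6.95%), 2 at 7 dpi (2.35% against 3.26%) and 6 in primary neurons (7.06% against 3.36%). As with the hyper calls, the share was above its background in primary neurons and below it elsewhere, on counts of 0 to 10 genes that no test compares.

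**Figure D2:**
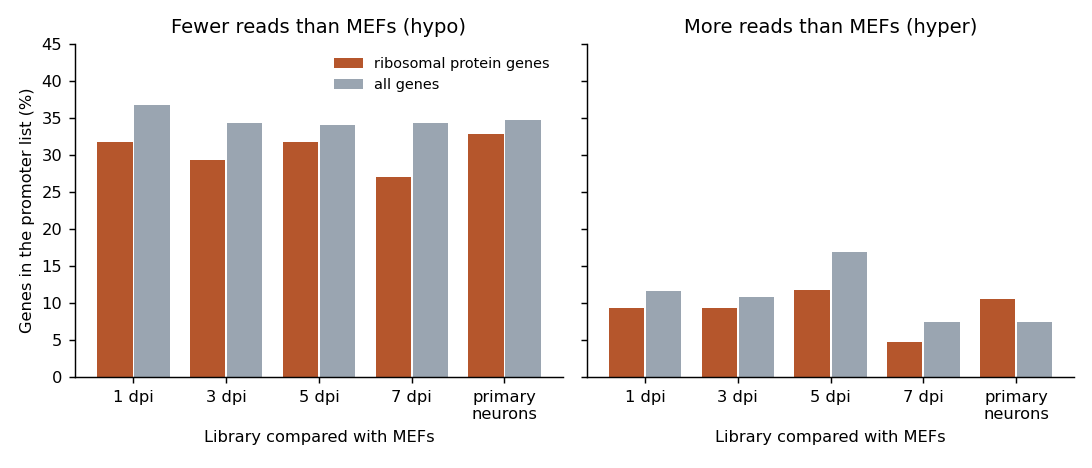
Share of genes in percent (y axis) named in the hypo list (left) and the hyper list (right) of each library compared with MEFs (x axis), for the 85 ribosomal protein genes and all 26216 genes, with 1 library per group and no error bars. Hypo bars of the ribosomal protein genes run from 27.1% to 32.9% and all lie under the bars of all genes, farthest at 7 dpi (27.1% against 34.3%). The hyper bar lies above its background in primary neurons alone, at 10.6% against 7.43%.

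By subunit, the large-subunit genes gave 17, 16, 17, 13 and 19 hypo calls of 52 for 1, 3, 5 and 7 dpi and then primary neurons, and the small-subunit genes 10, 9, 10, 10 and 9 of 33. Hyper calls of the large subunit were 5, 5, 3, 2 and 8, and of the small subunit 3, 3, 7, 2 and 1. Hypo shares ran from 25% to 36.5% for the large and from 27.3% to 30.3% for the small subunit. Hyper shares were 5.77% of the large and 21.2% of the small subunit at 5 dpi (16.9% of all genes), and 15.4% and 3.03% in primary neurons (7.43% of all genes). The 8 paralogs gave 4, 3, 4, 4 and 4 hypo calls, 37.5% at 3 dpi and 50% in the other comparisons, above the shares of all genes given before but on at most 4 genes.

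Other gene lists of the translation apparatus are given in the same order of libraries. Of 78 mitochondrial ribosomal protein genes, which serve the ribosome of the mitochondrion, 24, 26, 24, 24 and 25 were hypo (30.8% to 33.3%) and 14, 9, 15, 5 and 9 hyper (6.41% to 19.2%). Of 52 ribosome biogenesis genes, which process ribosomal RNA and assemble subunits, 20, 21, 20, 19 and 18 were hypo (34.6% to 40.4%) and 7, 5, 10, 3 and 1 hyper, or 19.2% at 5 dpi and 1.92% in primary neurons. Of 40 translation initiation factor genes 13, 14, 14, 12 and 10 were hypo (25% to 35.0%) and 4, 5, 5, 1 and 2 hyper (2.5% to 12.5%). Of 10 elongation factor genes 5, 3, 5, 5 and 4 were hypo (30.0% to 50%) and 0, 0, 1, 2 and 0 hyper, a list too short for its shares to be read. Of 26 housekeeping genes from other pathways 9, 8, 9, 8 and 9 were hypo (30.8% to 34.6%) and 3, 2, 4, 4 and 3 hyper (7.69% to 15.4%).

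In the hypo lists genes recurred as often as in general. Of the 30 genes listed in any hypo list, 18 (60.0%, against 59.9% of all genes in a hypo list) were in all 5: Rpl5, Rpl10l, Rpl11, Rpl23a, Rpl24, Rpl27, Rpl28, Rpl34, Rpl36a, Rpl38, Rpl3l, Rps3a1, Rps4x, Rps7, Rps13, Rps18, Rps27 and Rps27l. Rpl13a, Rpl35, Rplp2, Rps20 and Rps4y2 were in 4, Rpl13, Rpl22, Rpl26, Rpl30, Rpl31 and Rps6 in 3, Rps24 in 2, and no gene in 1. Their 141 regions fell on 33 places, each listed in at least 2 comparisons. At 31 of the 33 places the MEF reads were the same number in every comparison, although the windows ran from 200 to 620 bp, and the same MEF library enters all of them.

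The MEF reads at these places ran from 15, the lowest in any hypo list, to 47, with a median of 21. Of the 33 places, 15 lay on a MEF peak of the authors, and at 10 of those the tag count at the peak summit equalled the MEF reads of the region. How the reads of a region were counted and whether duplicate reads were removed are not given in the sources used here. A number that does not change with the window may be the height of a pile-up at 1 point and not the sum over the window.

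Among large-subunit genes the highest MEF reads were at Rpl34, Rpl36a, Rpl23a and Rpl27. At Rpl34 the MEF library had 47 reads downstream of the TSS, and the others had 0 at 1 dpi, 3 at 3 dpi, 2 at 5 dpi, 4 at 7 dpi and 0 in primary neurons. The signal was at least 8.81-fold lower at 1 dpi and 6.71-fold lower at 7 dpi (95% interval 2.46 to 25.7, counting error only). At Rpl36a, an X-linked gene, MEFs had 42 reads 723 bp upstream, against 0, 0, 1, 0 and 1 in the same order. The 5 libraries thus had 0 to 4 reads at both places, where the authors also listed MEF peaks of 6.05-fold and 6.18-fold enrichment. These enrichments and those below are the authors' own values.

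At Rpl23a, whose protein sits at the exit of the nascent chain tunnel, MEFs had 41 reads against 1, 6, 2, 6 and 6. The fold was 3.90 at 3 dpi (95% interval 1.65 to 11.3) and 3.80 in primary neurons (1.60 to 10.9). At Rpl27 MEFs had 37 reads upstream against 4, 3, 4, 2 and 0, and a downstream place had 16 or 18 MEF reads against 0 at 1, 3 and 5 dpi. At Rpl24, the gene mutated in Belly spot and tail mice, MEFs had 35 reads against 0, 1, 2, 4 and 3. In these hypo listings no other library had more than 6 reads, but hyper regions of 10 reads overlapped the places of Rpl23a at 5 dpi and Rpl27 in primary neurons.

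Rpl5 and Rpl11 encode the pair that binds 5S ribosomal RNA and can restrain Mdm2. Rpl5 had 25 MEF reads against 0, 2, 1, 2 and 1, and Rpl11 had 27 MEF reads upstream against 2, 2, 0, 1 and 0. A place downstream of the Rpl11 start had 21 MEF reads against 0 at each of 1, 3, 5 and 7 dpi and was not listed in primary neurons. The upstream Rpl11 region overlapped the promoter sequence printed above by 163 to 243 bp, a stretch with 3 to 7 CpGs.

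Rpl28 had 16 MEF reads and 0 in all 5 other libraries, at least 2.96-fold to 3.05-fold lower. Its region, centred 34 to 104 bp upstream of the start, covered the TSS in all 5 comparisons and took in 240 to 274 bp of the 300-base promoter with 26 or 27 CpGs. The count was 1 read over the lowest in the hypo lists, no MEF peak was listed there, and where in the window the reads lay is not known. Rpl13a had 30 MEF reads 205 to 265 bp upstream, on a MEF peak, against 0 at 1 dpi, 1 at 3 dpi, 0 at 7 dpi and 0 in primary neurons. Its region overlapped 175 bp of the promoter with 17 CpGs.

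Further large-subunit genes were hypo in at least 4 comparisons. Rplp2, which encodes an acidic protein of the stalk that recruits elongation factors, had 25 MEF reads against 0, 2, 1 and 1 at 1, 3 and 5 dpi as well as in primary neurons. Rpl35 had 23 MEF reads against 1, 0, 0 and 1 in the same 4 libraries. Rpl38, which mouse studies have tied to the translation of Hox mRNAs, had 18 MEF reads against 0 in all 5 libraries. Among the paralogs, Rpl10l, a testis-expressed paralog of Rpl10, had 21 MEF reads and Rpl3l 16, each against 0 in all 5.

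Among small-subunit genes Rps18 stood highest, with 41 MEF reads 1691 bp downstream of the TSS against 2, 0, 1, 1 and 2. The fold was at least 7.81 at 3 dpi and 11.4 in primary neurons (95% interval 2.96 to 97.2). Rps20 had 30 MEF reads against 2, 2, 4 and 4 at 1, 3 and 5 dpi as well as in primary neurons, and Rps13 had 24 against 1, 1, 1, 0 and 1. The other libraries had 0 to 4 reads in the hypo listings of these 3 places. Rps7 had 20 MEF reads, Rps27 and Rps4x 18 each and Rps3a1 15, each against 0 in all 5 libraries.

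Rps27l, a paralog of Rps27 that p53 can induce, had 15 MEF reads at both of its places, against 0 in each library where these were listed. Rps4y2, by its symbol a relative of Rps4x, is named Rps4l among the RefSeq genes and classed there as a transcribed pseudogene. It had 15 or 17 MEF reads against 0 at 1, 5 and 7 dpi as well as in primary neurons. Counts this close to the lowest listed value separate the libraries weakly: with 15 MEF reads against 0, the fold was at least 2.78 in primary neurons. Over all hypo regions of the genes, 91 of 141 (64.5%) had 0 reads in the other library, near the 60.3% of all hypo regions.

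The genes listed less often had like values. Rpl31 had 29 MEF reads against 1, 2 and 2 at 1 dpi, 3 dpi and in primary neurons. Rpl26, which in human cells binds p53 mRNA, had 25 against 2, 1 and 0 at 5 dpi, 7 dpi and in primary neurons. Rpl13 had 24 against 0, 1 and 2 at 1 dpi, 5 dpi and in primary neurons. Rpl30 had 19 MEF reads, Rps6, the substrate of S6 kinase, 18, Rps24 16 and Rpl22 15, each against 0 where listed. Their absence from the other lists does not show that the libraries were alike there.

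**Figure D3:**
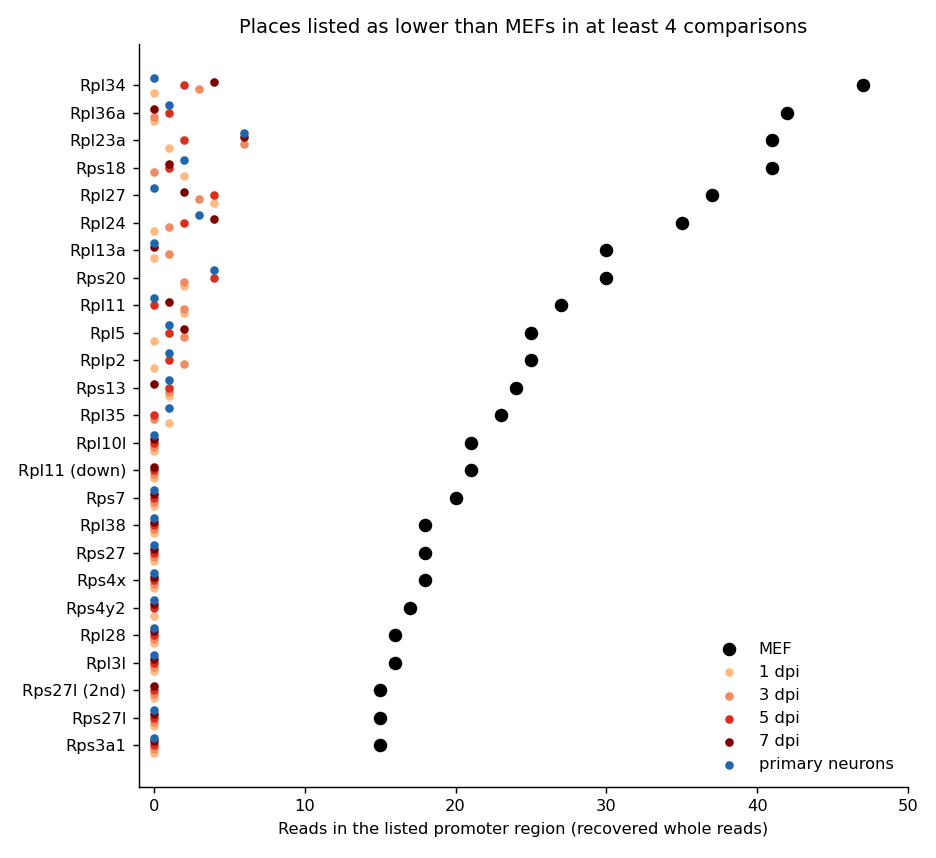
Recovered reads (x axis) in MEFs (black) and in each of the 5 other libraries (coloured) at the 25 places listed as hypo in at least 4 comparisons, 1 row per place and ordered by MEF reads; "down" marks the downstream place of Rpl11 and "2nd" the farther place of Rps27l, and libraries without a listing have no point. MEF points run from 15 to 47, all other points, which are values of hypo listings alone, from 0 to 6, and no row overlaps, as the choice of listed regions requires.

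Hyper regions were scattered and small. There were 43 in 32 genes, with 9 to 16 reads in the higher library, 9 being the lowest in any hyper list, and 0 MEF reads in all 43. Among all hyper regions 93.8% had 0 MEF reads, so this is a trait of the lists. Of the 43, 31 (72.1%) had 9 or 10 reads, against 53.8% of all hyper regions. Of the 32 genes, 26 (81.2%, against 66.1% of all genes in a hyper list) were listed in 1 comparison, Rpl23a, Rpl26, Rps7, Rps16 and Rps29 in 2, Rpl22 in 3 and none in more, in contrast with the recurring hypo places, which all rest on the shared MEF library.

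At 1 dpi the highest was Rpl41, which encodes one of the shortest proteins known in mammals, with 16 reads 462 bp upstream (at least 9.48-fold above MEFs) and 9 reads at a farther place. Rpl22l1 and Rps15a had 10 reads each, and Rpl8, Rpl11, Rpl22 and Rps29 had 9. At 3 dpi Rpl26 had 15 reads (at least 8.75-fold) and Rps16 14, followed by Rpl17 and Rps4y2 with 10 each and Rpl19, Rpl22, Rpl39l and Rps29 with 9 each. Most of these genes thus sat at or 1 read above the lowest listed value.

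At 5 dpi Rps26 had 15 reads (at least 8.75-fold), and Rps19, the gene most often mutated in human Diamond-Blackfan anaemia, had 13 and 9 at separate places. Rps16 had 13 and 10, Rpl22 11, Rps7 10 at each of 2 places, Rpl23a and Rpl24 10 each, and Rps9 9. At 7 dpi Rps15 had 16 reads 900 bp upstream (at least 9.33-fold), Rps7 13, and Rpl31 and Rpl3l 9 each. In primary neurons Rpl26 had 13 reads (at least 7.80-fold), Rpl5 and Rps13 11 each, Rpl13 and Rpl27 10 each, and Rpl3, Rpl21 and Rpl23a 9 each. No gene gave a hyper region in every library of the induced neurons.

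Recurrence at 1 place was seen for Rps16 and Rps7 alone. The Rps16 regions at 3 and 5 dpi, with 14 and 13 reads, shared 280 bp upstream of the gene, and a further Rps16 region at 5 dpi reached 202 bp of the printed promoter with 13 CpGs. The Rps7 regions at 5 and 7 dpi, with 10 and 13 reads, shared 240 bp downstream of the TSS. Rpl22, whose loss disturbs the development of αβ T cells in mice, was hyper at 1, 3 and 5 dpi with 9, 9 and 11 reads at places that did not overlap. Rpl23a, Rpl26 and Rps29 likewise had separate places in their 2 comparisons.

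Hyper regions covered the TSS in 2 genes, both at 3 dpi and both with 9 reads against 0 in MEFs. At Rpl19 the region took in 159 bp of a 300-base promoter with 18 CpGs, and at Rpl22 165 bp with 5 CpGs. Rpl13 was touched at its outer edge in primary neurons, over 61 bp with 0 CpGs.

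By distance, hypo regions of the genes did not crowd at the start site. The centre lay a median of 1210 bp from the TSS, against 1080 bp for all hypo regions and 1130 bp for those of genes with CpG-rich promoters. Within 500 bp lay 32 of 141 (22.7%, against 20.5% and 17.0%), and regions covering the TSS numbered 5 of 141 (3.55%, against 6.6%), all of them Rpl28. The regions of 1 gene in 5 comparisons share their place, so these are far fewer than 141 observations. The TSS in the lists stood over 1000 bp from any RefSeq start for 2 of 36 genes compared, Rpl34 and Rps4x. With RefSeq starts, 23 of 125 hypo regions lay within 500 bp, against 32 of the same 125 by the listed TSS.

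Hyper regions lay a median of 1050 bp away, against 1110 bp for all, but mostly on the upstream side: 33 of 43 (76.7%) against 51.5% of all hyper regions. The counts were 7 of 9 at 1 dpi, 5 of 8 at 3 dpi, 9 of 13 at 5 dpi, 3 of 4 at 7 dpi and 9 of 9 in primary neurons. Hypo regions were even, with 72 of 141 (51.1%) upstream against 50.1% of all. Ribosomal protein genes are short, with a median length of 3175 bp against 14311 bp for all genes, and whether their length has a part in the upstream share was not tested.

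**Figure D4:**
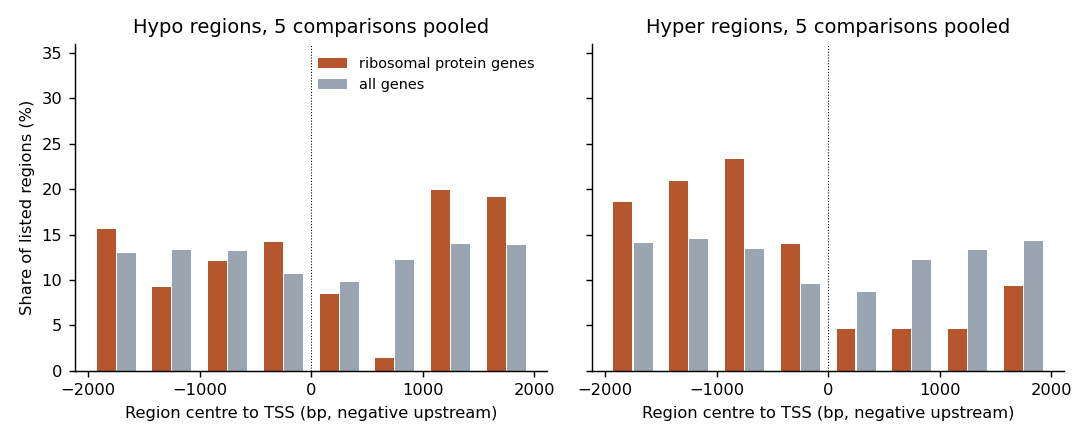
Distance of the region centre from the listed TSS in bp (x axis, 500-bp bins, negative upstream) against the share of regions in percent (y axis), for 141 hypo (left) and 43 hyper (right) regions of ribosomal protein genes and for all listed regions, 5 comparisons pooled. Hyper regions of the ribosomal protein genes pile up on the upstream side (76.7%), hypo regions are even between the sides (51.1%) with 1.42% in the bin from 500 to 1000 bp downstream.

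Peaks called in single libraries showed the genes chiefly in MEFs. Any MEF peak was assigned to 53 of 85 genes (62.4%, against 75.6% of all genes), and a promoter peak to 14 (16.5%, against 19.8%). In order of enrichment the promoter peaks belonged to Rpl27 (6.30-fold), Rpl36a (6.18-fold), Rpl34 (6.05-fold), Rpl23a and Rps18 (5.29-fold each), Rpl24 (5.04-fold), Rpl35 (4.28-fold), Rpl13a (3.91-fold), Rpl31 (3.78-fold), Rplp2 (3.28-fold), Rpl26 (3.19-fold), Rps13 (3.15-fold), Rpl10l and Rpl11 (2.77-fold each). All 14 were genes of the hypo lists, but both calls pick places where the same MEF library stood high. The like share among all genes with a MEF promoter peak was not computed. The overlap is therefore not a result about the ribosomal protein genes.

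Gene bodies gave 3 genes (3.53%, against 41.9%): Rps10 at 6.55-fold, Rpl9 at 4.54-fold and Rpl14 at 3.68-fold, none of which was in a promoter list. Among genes no longer than the median ribosomal protein gene the gene-body share was 1.32% and the promoter share 16.0%, so that the low gene-body share did not stand below that of other short genes. Any MEF peak was assigned to 56.5% of these short genes, below the 62.4% of the ribosomal protein genes. A further 282 intergenic MEF peaks were assigned to 42 of the ribosomal protein genes as the nearest (49.4%, against 61.6% of all and 51.9% of the short genes). They lay at a median of 73.8 kb and up to 731 kb. Only 37 of the 282 lay within 10 kb, and Rpl10l and Rps29 alone took 51 and 49 of them.

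In the other libraries peaks were few for all genes. No ribosomal protein gene had one at 1 dpi (background 0.805%), at 3 dpi (3.86%) or in primary neurons (1.62%). At 5 dpi Rps6 had 1 intergenic peak 14.6 kb away (4.68-fold; background 3.41%), and at 7 dpi Rplp1, a further stalk protein, had 1 at 180.0 kb (4.41-fold; background 4.71%). Against backgrounds this low, a count of 0 or 1 of 85 genes is not a result about the ribosomal protein genes.

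Listed and unlisted genes had similar median CpG ratios. The median CpG ratio was 0.849 over 31 promoters of genes in a hypo list, 0.862 over 26 of genes in a hyper list, and 0.876 over 32 of genes in neither. Among genes in all 5 hypo lists it was 0.795 over 20 promoters, with a range of 0.0892 to 1.18. The share of promoters with a ratio of at least 0.6 differed more, with 77.4% of the hypo, 76.9% of the hyper and 70.0% of the all-5 hypo promoters against 90.6% of those of unlisted genes. The 36 genes in no promoter list included the stalk genes Rplp0 and Rplp1, Rpsa, which also encodes the laminin receptor, and Rps2 and Rps3 of the small subunit.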

How the data were processed

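Reads were handled with CASAVA and Bowtie2 2.1.0 on the mm10 genome, per the submitters' processing notes. Which programs called peaks and differences, how they were set and which input they took is not given in the sources used here. Per library, the authors deposited a peak list (6 in all) and, for the 5 comparisons, 10 promoter lists (hyper and hypo). Column codes were tied to libraries by the headers, since in the labels at 3, 5 and 7 dpi the code given for a hyper list belongs to primary neurons. The peak enrichment is a fold ratio that the authors deposited, and the peak summit value is a tag count, per the file headers. The deposited q-value column of the peak lists started at 4.02, so its values were taken for −log10 q. The authors' p-value and q-value per promoter region set 1 library against 1, and in the authors' deposited table reach 0.0105 and 0.101.

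The promoter signal that the authors deposited as counts equalled whole reads times a constant of each library in each comparison: division gave whole numbers within 0.1 for 100% of the values of these genes' comparisons. Intervals are exact conditional Poisson intervals at 95%, cover counting error only and were tested on simulated Poisson counts drawn without selection. Their coverage was not tested for regions listed because the libraries differed, nor for counts that are pile-up heights. The total depth per library is unknown. No model was fitted. Genes were counted over 26216 RefSeq genes. Scripts ran in python 3.11.15 with pandas 2.3.3, numpy 2.4.6, matplotlib 3.10.9 and scipy 1.17.1. The genes, the lists and the tests were chosen with earlier results of these data known. With the exception of a few genes that are not reported here by name, every gene in a promoter list or with a promoter or gene-body peak was named, with reads for genes hypo in at least 4 comparisons, for all hyper genes, and for the 3 largest folds per comparison and direction. Alternatives were the background, the p threshold, the distance, the read floor, the centring, the peak threshold and place, the overlap, the start sites and the 77 genes of the 80S ribosome.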

Additional observations from a re-analysis of the deposited data

Results flagged for a closer look

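At 5 genes a hyper region of 1 library overlapped a hypo region of another, so that opposite calls stand on overlapping windows. With 1 library per group the difference was not tested, and opposite movement of the libraries at 1 place is not shown. The hyper and hypo regions shared 160 bp at Rpl23a (5 dpi with 10 reads, 1 dpi with 1), 180 bp at Rpl26 (3 dpi with 15 reads, 7 dpi with 1) and 80 bp at Rpl27 (primary neurons with 10 reads, 1 dpi with 4). They shared 160 bp at Rpl31 (7 dpi with 9 reads, 1 dpi with 1) and 20 bp at Rps7, there both for 5 dpi with 10 reads and for 7 dpi with 13, against 1 dpi with 0. The MEF reads given for the overlapping windows differed: they were 0 in each hyper region, but 41, 25, 37, 29 and 20 in the hypo regions of Rpl23a, Rpl26, Rpl27, Rpl31 and Rps7. At Rpl23a (5 dpi, 120 bp shared), Rpl27 (primary neurons, 80 bp) and Rps7 (5 dpi, 20 bp), both calls stood in the same comparison. The hyper regions of Rpl23a, Rpl26, Rpl27 and Rpl31 also lay on a MEF peak, although 0 MEF reads were listed for them. How a read was assigned to a window is not given in the sources used here.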

How the results depend on the processing

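The counts of listed genes depended on the threshold, with values given for 1, 3, 5 and 7 dpi and primary neurons in that order. With p below 1e-10 only 2, 2, 0, 1 and 1 genes were hypo and 0 were hyper in each comparison. With centres within 1000 bp of the TSS, 10, 10, 8, 8 and 11 were hypo and 5, 4, 5, 2 and 3 hyper. No share over all genes is given at these 2 settings, so the drops cannot be read as particular to the ribosomal protein genes. Over genes named in any promoter list, the background was 62.4%, 58.1%, 57.8%, 58.2% and 59.1% hypo, and 19.9%, 18.5%, 28.7%, 12.6% and 12.6% hyper, where the 49 ribosomal protein genes named gave 55.1%, 51.0%, 55.1%, 46.9% and 57.1% hypo. Over protein-coding genes, chosen after seeing the data as were CpG-rich genes and RefSeq starts, the hypo background was 40.4%, 37.7%, 37.5%, 37.8% and 38.3% and the hyper background 12.8%, 11.9%, 18.5%, 8.19% and 8.23%. Over CpG-rich genes the hyper background was 11.0%, 10.4%, 16.5%, 6.45% and 7.72%. The 56 CpG-rich ribosomal protein genes gave 4, 5, 6, 3 and 4 hyper calls, or 7.14%, 8.93%, 10.7%, 5.36% and 7.14%, each below that background.

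The median log2 of the other library over MEFs was -2.07, -2.0, -2.0, -1.97 and -2.13 in hypo regions and 2.42, 2.47, 2.54, 2.66 and 2.58 in hyper regions. A floor of 1 read, which by construction widens folds against 0, gave -3.42, -3.28, -3.36, -3.36 and -3.36, and 4.0, 4.05, 4.13, 4.24 and 4.17. Centred on the median over all regions of both lists (-1.91, -1.93, -1.78, -2.0 and -1.96), the hypo medians were -0.167, -0.0704, -0.222, 0.0348 and -0.176. The hyper medians were 4.32, 4.40, 4.32, 4.66 and 4.54. Hypo regions outnumber hyper regions, 11313 against 2218 at 7 dpi, so by construction this centring brings hypo medians near 0. The turned sign at 7 dpi is therefore not a change of direction.

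With peaks of at least 5-fold enrichment, 33 genes had a MEF peak (38.8%, against 57.5% of all genes). Among genes no longer than the median ribosomal protein gene this share was 38.2%. At 5 and 7 dpi 0 had such a peak, against 1.93% and 3.25% of all genes. With promoter and gene-body peaks alone these were 17, 0 and 0. Restricting to the 80S ribosome or a stricter overlap of regions with peaks left the counts within 1.5 times. With RefSeq starts the median hyper distance went from 951 to 648 bp at 3 dpi and from 1010 to 1400 bp at 5 dpi, and 1 region per gene also gave 1400 bp at 5 dpi. No paired analysis was possible because each group has 1 library. Single libraries, with region counts of 9 to 47 reads and no total depth, limit every comparison.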
